A study of Mus musculus with 6 samples.

Results

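The Bcl2 family sets the threshold for mitochondrial apoptosis, and 10 of its genes were examined here in mouse liver with and without the splicing factor SRSF3 in hepatocytes. They were the anti-apoptotic genes Bcl2, Bcl2l1, Bcl2l2 and Mcl1, the effector gene Bak1, and the BH3-only genes Bcl2l11, Bbc3, Pmaip1, Bid and Bad. Members were the probe sets that the array annotation assigns to exactly 1 of these symbols. This gave 98 of the 229581 probe sets on the array and 10 of 16277 genes, and no probe set was listed for a member together with another gene.

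Total liver RNA of untreated mice aged 1 month was hybridised to Affymetrix mouse exon arrays, which measure most genes with several short probe sets. There were 3 arrays from hepatocyte knockout mice (SRSF3HKO) and 3 from wild-type littermates of matched age (WT). The labels give neither the transgene that drove the deletion nor the deleted part of Srsf3, and they do not say that each WT array is a separate mouse, so p-values measure the spread between these arrays. Whole liver was used, so cells other than hepatocytes, which were not targeted, contribute RNA, and fewer cells of a type cannot be told apart from less RNA per cell.

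Proteins of this family act at the outer mitochondrial membrane. BAK1 and the related BAX open pores that let cytochrome c into the cytosol, and the anti-apoptotic proteins BCL2, BCL-XL (from Bcl2l1), BCL-W (from Bcl2l2) and MCL1 hold them in check. BH3-only proteins, among them BIM (from Bcl2l11), PUMA (from Bbc3) and NOXA (from Pmaip1), bind the anti-apoptotic proteins or activate the effectors. In hepatocytes, which depend on BCL-XL and MCL1 for survival, BID links death receptors at the cell surface to the mitochondria.

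Levels are given as log2(intensity + 16), with the median over a gene's probe sets as its level, and every change is SRSF3HKO minus WT on that scale with its standard error and 3 arrays per group. This scale understates changes of dim genes. A gene was tested when its mean over the 6 arrays exceeded 5.35, and a probe set when its mean exceeded 5.62. Both floors were set at the 90th percentile of 1045 genes for smell and taste receptors, taken here as not expressed in liver. A gene or probe set is called when limma's p, adjusted over all those tested, is under 0.05. The array medians lay between 75.3 and 89.6 intensity units, and the number of arrays limits the precision. On the WT arrays Srsf3 was at 9.79, 9.24 and 9.35, and on the SRSF3HKO arrays at 10.30, 9.10 and 9.78 (change 0.26 ± 0.31, limma adjusted p = 0.626). Probe sets outside the deleted part, which the labels do not name, check nothing about the labels. SRSF3HKO replicate 1 stood apart by its macrophage markers, whose mean over 10 of 10 listed genes was 10.76 there, against 8.22 and 8.44 in the other SRSF3HKO arrays and 8.07 to 8.22 in WT. Marco alone was called in that list, but 5 of the 10 genes had a limma unadjusted p under 0.05, 0 of them lower. Over all genes tested this share was 29%. These were Vsig4, Marco, Cd68, Lyz2 and Cd163, each higher on every SRSF3HKO array than on any WT array. The scavenger receptor gene Marco was at 11.15, 8.43 and 7.81 in SRSF3HKO and at 6.26 to 6.40 in WT (change 2.78, limma adjusted p = 0.045). Hepatocyte markers averaged 13.39 to 13.42 in WT and 13.10 to 13.21 in SRSF3HKO. Of the 10 measured hepatocyte genes 9 had a negative change, and the median was -0.17. Serpina1c, read by 1 probe set, had the lowest (-1.57) and weighs on the mean. WT replicates 1 and 2 and SRSF3HKO replicate 3 carried signal of Y-linked genes, and the other 3 arrays did not.

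Of the 10 members, Bcl2l11 rose, none fell and 9 did not pass limma's test. At an unadjusted p under 0.05, 3 were higher and 0 lower, where 17.6% of all genes tested were higher, 11.4% lower and 29% either, so this count too is close to the share of the array. Over all 11709 genes tested, 11.9% were called, 6.85% as higher and 5.03% as lower, so 1 call in 10 genes is close to the share of the array. All 10 members passed the floor. Their median change was 0.21, beside 0.08 over all genes tested, and 8 of them had a positive change, beside 57.4% of all genes. The arrays of the genotypes did not overlap for 3 members, Bcl2l11, Bcl2l1 and Pmaip1, all higher in SRSF3HKO, where 35.6% of all genes tested had no overlap.

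**Figure D1:**
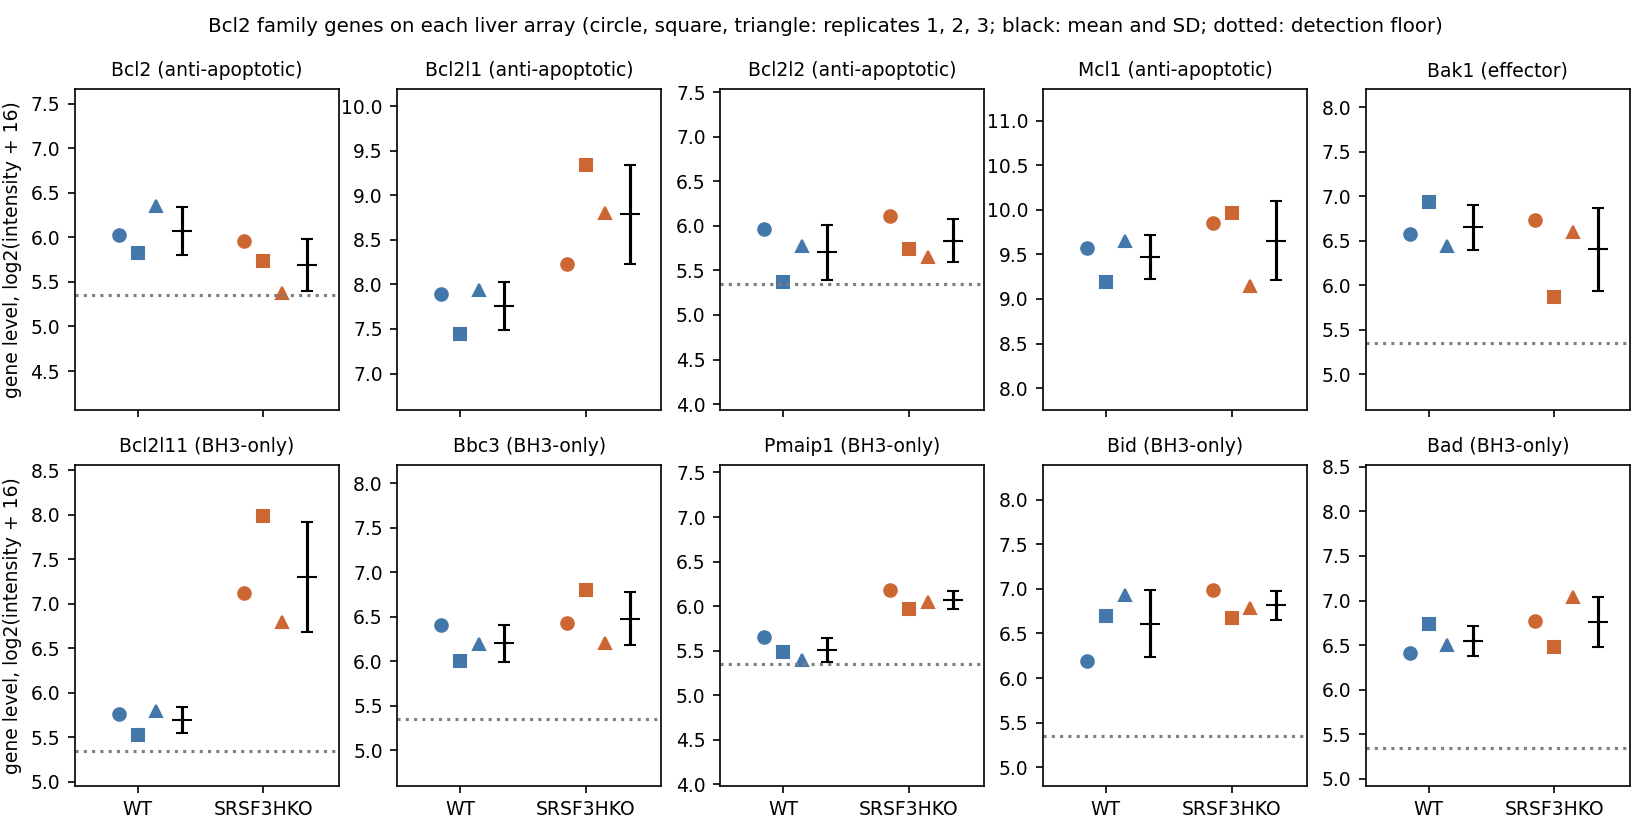
Gene level of each of the 10 Bcl2 family genes on each array, as log2(intensity + 16), for WT (blue) and SRSF3HKO (orange), with the mean and SD of 3 arrays beside the points and the detection floor of 5.35 as a dotted line where it falls in the panel; each panel spans the same range. Bcl2l11, Bcl2l1 and Pmaip1 show no overlap between genotypes, and Bcl2l11 in SRSF3HKO lies between 6.79 and 7.99, above WT values of 5.53 to 5.80.

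Bcl2l11, which codes for the BH3-only protein BIM, was the member with the lowest p. Its level was 5.76, 5.53 and 5.80 on the WT arrays and 7.12, 7.99 and 6.79 on the SRSF3HKO arrays. WT was thus low and tight, close above the floor, whereas SRSF3HKO was high and spread over more than a log2 unit, with replicate 2 at the top and no overlap. The change was 1.61 ± 0.30 (limma adjusted p = 0.016), a 3.05-fold rise with a 95% interval of 1.89 to 4.92. Among the 11709 genes it ranked at place 457 by p. The rise was 1.15 within the arrays that carry Y-linked signal and 1.76 within those that lack it, and 1.48 with that signal as a covariate (limma adjusted p = 0.0304). Without SRSF3HKO replicate 1, the array with high macrophage markers, the rise was 1.70 (limma adjusted p = 0.0195). The array with the most Bcl2l11, SRSF3HKO replicate 2, had macrophage markers at 8.22 on average. That mean joins opposite moves. On this array 5 of the 10 markers, such as Marco (8.43), lay above every WT array, and the others, such as Timd4 (5.83), below every WT array. The part of macrophages in the Bcl2l11 rise was not tested. Leaving out WT replicate 1, 2 or 3 ended the call, at changes of 1.64, 1.52 and 1.66 (limma adjusted p = 0.0736, 0.0836 and 0.0583).

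All 15 probe sets of Bcl2l11 were bright enough to test, and 8 of them were called, all higher, where 4.73% of all 157861 probe sets tested were called higher. The probe sets of a gene share its RNA and are no independent replicates. WT means of 8 probe sets lay below the probe set floor, so these passed through their SRSF3HKO values; among the other 7, whose WT mean exceeded the floor, 4 were called. The count of 8 became 4, 3 and 4 without WT replicate 1, 2 and 3, and 5 both with no filter and with Y-linked signal as a covariate. Probe set 4902664 had the lowest p. Its intensities were 27.1, 30.7 and 34.0 in WT and 196, 225 and 124 in SRSF3HKO, and it was at least 3.88-fold higher by the floor (limma adjusted p = 0.0041). It was called in all 14 alternatives run on probe sets (highest limma adjusted p = 0.0321), though it passed the floor only through its SRSF3HKO values. The highest change was that of probe set 4695667, from 22.6, 27.0 and 48.4 in WT to 182, 285 and 151, at least 3.99-fold (limma adjusted p = 0.00524). Probe set 5041179, above the floor in WT, went from 73.7, 49.6 and 79.3 to 281, 446 and 145 (change 1.76 ± 0.38, limma adjusted p = 0.0237).

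Probe set 5185346 was the only Bcl2l11 probe set with a negative change. It read 45.9, 89.0 and 62.3 in WT and 42.6, 51.5 and 61.8 in SRSF3HKO (change -0.24 ± 0.29, limma adjusted p = 0.645). Bcl2l11 is known for splice isoforms that differ in apoptotic potency, and limma's diffSplice was used to ask whether a probe set changed by more or less than its gene as a whole. The change of 5185346 differed from that of the other Bcl2l11 probe sets by -1.77, which did not pass (limma diffSplice adjusted p = 0.132). No Bcl2l11 probe set was called for usage, where 0.666% of 142887 tested probe sets were. The position of each probe set in the transcript was not analysed here. For 13 of the 15 probe sets SRSF3HKO replicate 2 was the highest array of its group, and for the other 2 it was replicate 3.

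**Figure D2:**
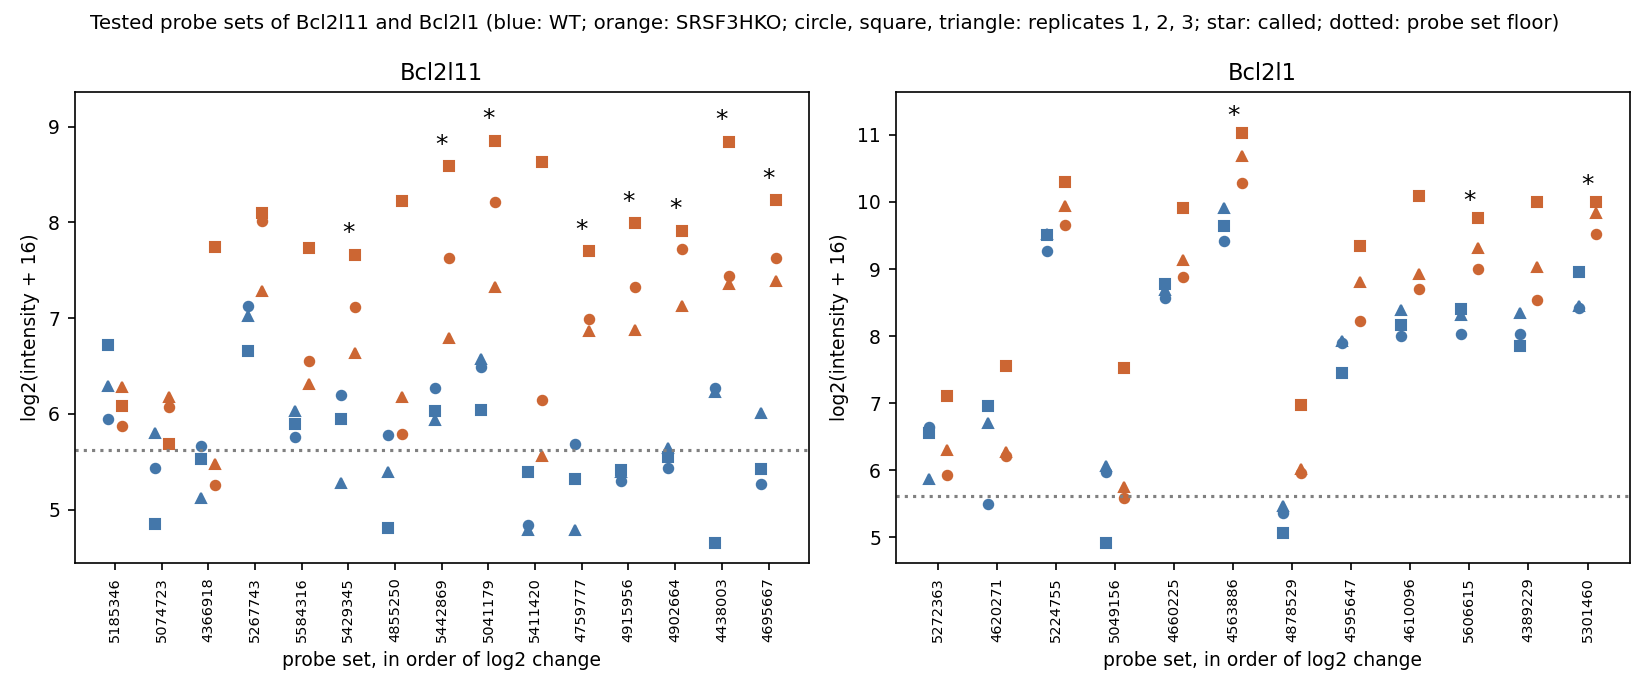
Tested probe sets of Bcl2l11 (15) and Bcl2l1 (12), each at its log2(intensity + 16) on 3 WT (blue) and 3 SRSF3HKO (orange) arrays, ordered by change; stars mark probe sets called higher and the dotted line is the probe set floor of 5.62. Higher SRSF3HKO values run across most Bcl2l11 probe sets apart from 5185346, and SRSF3HKO replicate 2 (squares) is the highest array for all 12 Bcl2l1 probe sets.

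The promoter of Bcl2l11 is known as a target of FOXO transcription factors, and so is that of Bbc3. Promoter windows from RefSeq (GRCm38.p6, 250 bases before to 50 after an annotated start) are shown for both Bcl2l11 starts and for the Bbc3 start whose window holds the FOXO letters, since Bcl2l11 rose and Bbc3 did not pass the test. Capitals mark matches on either strand to the letters GTAAACA of a FOXO motif. They also mark the GC box, whose letters are GGGCGG, and the CCAAT box, which is named for its letters.
Bcl2l11 start 1, chr2:128125788-128126087, plus strand: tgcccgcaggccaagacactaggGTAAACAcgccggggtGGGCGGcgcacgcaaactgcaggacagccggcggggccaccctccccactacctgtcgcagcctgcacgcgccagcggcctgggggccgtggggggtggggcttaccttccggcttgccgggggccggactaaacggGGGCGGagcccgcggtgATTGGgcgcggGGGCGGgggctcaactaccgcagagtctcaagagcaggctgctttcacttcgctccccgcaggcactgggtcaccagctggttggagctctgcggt
Bcl2l11 start 2, chr2:128127325-128127624, plus strand: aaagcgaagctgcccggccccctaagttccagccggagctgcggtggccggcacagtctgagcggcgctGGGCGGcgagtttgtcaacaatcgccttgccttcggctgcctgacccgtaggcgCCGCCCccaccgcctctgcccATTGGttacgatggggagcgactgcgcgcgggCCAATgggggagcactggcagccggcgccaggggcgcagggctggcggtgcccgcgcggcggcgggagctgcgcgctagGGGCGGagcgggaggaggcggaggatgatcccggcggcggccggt
Bbc3 start 2, chr7:16310011-16310310, plus strand: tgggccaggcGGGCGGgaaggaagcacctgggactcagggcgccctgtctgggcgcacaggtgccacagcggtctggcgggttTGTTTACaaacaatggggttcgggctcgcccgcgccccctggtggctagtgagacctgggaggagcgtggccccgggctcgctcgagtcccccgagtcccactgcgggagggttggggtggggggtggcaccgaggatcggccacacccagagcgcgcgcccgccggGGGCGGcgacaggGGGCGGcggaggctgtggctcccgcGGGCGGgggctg

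GTAAACA began at -227 relative to the start in the first Bcl2l11 window and, on the other strand, at -167 in the Bbc3 window. It was found in 2 of 15 windows of the 9 members whose windows were read, and in 3.65% of 32817 windows of the same length over all genes. GGGCGG was in 10 of the 15 windows and in 35.6% of all, and CCAAT in 4 and in 37.4%. Some windows of 1 gene overlap. The ATF4 element TGATGCAA, the cyclic AMP response element TGACGTCA and the E box CACGTG were in 0, 0 and 1 of the 15 windows, and in 0.896%, 1.79% and 7.15% of all windows. These matches describe letters and not binding. Of the FOXO genes, only the mRNAs of Foxo1 and Foxo3 were read, and neither change passed the test. FOXO activity was not measured, and the part of FOXO in the Bcl2l11 rise was not tested. Foxo1 was at 8.58, 8.80 and 8.96 in WT and 8.66, 8.81 and 8.79 in SRSF3HKO (change -0.03 ± 0.19, limma adjusted p = 0.94). Foxo3 was at 8.57, 8.41 and 8.78 in WT and spread from 7.64 to 9.14 in SRSF3HKO (change -0.22 ± 0.35, limma adjusted p = 0.722).

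Among the anti-apoptotic genes, Bcl2l1 had the largest positive change but did not pass the test at the level of the gene. It was at 7.89, 7.45 and 7.93 in WT and 8.23, 9.34 and 8.80 in SRSF3HKO. All SRSF3HKO arrays lay above all WT arrays, and replicate 2 was the highest. The change was 1.03 ± 0.30, or 2.04-fold with a 95% interval of 1.27 to 3.29 (limma adjusted p = 0.0613). The gene was called at a change of 1.31 without SRSF3HKO replicate 1 (limma adjusted p = 0.0226), with array weights (0.85, limma adjusted p = 0.0413) and among the brighter genes alone (limma adjusted p = 0.0489). It was not called in the 15 other alternatives, in which limma's adjusted p was 0.0577 to 0.207.

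At the level of probe sets, 12 of the 15 Bcl2l1 probe sets were tested, all 12 had a positive change, and 3 were called. Over all probe sets tested, 4.73% were called higher. SRSF3HKO replicate 2 was the highest array of its group for all 12, and probe sets of a gene are not independent. Probe set 5301460 rose from 326, 479 and 332 intensity units in WT to 717, 1003 and 899 in SRSF3HKO (change 1.18 ± 0.24, limma adjusted p = 0.0204). Probe set 5606615 rose from 247, 323 and 304 to 494, 850 and 618 (1.10 ± 0.25, limma adjusted p = 0.0314), and probe set 4563886 rose from 667, 787 and 946 to 1235, 2081 and 1626 (1.01 ± 0.25, limma adjusted p = 0.0368). These 3 probe sets were well above the floor in WT and had no overlap. Their calls were fragile, since no Bcl2l1 probe set was called without WT replicate 1, WT replicate 3 or SRSF3HKO replicate 3, 1 without WT replicate 2 and 5 without SRSF3HKO replicate 1. With the Y-linked covariate 1 was called. The lowest change was that of probe set 5272363, at 84.3, 78.2 and 42.4 in WT and 45.0, 122 and 63.0 in SRSF3HKO (0.09 ± 0.36, limma adjusted p = 0.908). Bcl2l1 gives a long anti-apoptotic and a short pro-apoptotic splice form; no Bcl2l1 probe set was called for exon usage, and the lowest limma diffSplice adjusted p was 0.823.

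Mcl1, whose product is a short-lived survival protein of hepatocytes, was at 9.57, 9.19 and 9.65 in WT and 9.85, 9.96 and 9.15 in SRSF3HKO. The genotypes overlapped, with SRSF3HKO replicate 3 below every WT array, and the change of 0.19 ± 0.26 did not pass (limma adjusted p = 0.684, 95% interval -0.41 to 0.78). All 8 of its 10 probe sets that were tested had positive changes, from 0.18 to 0.63, none was called by limma or had an unadjusted p under 0.05, and in all 8 the genotypes overlapped. The highest was probe set 4652629, at 1025, 656 and 973 in WT and 1383, 1958 and 920 in SRSF3HKO (limma adjusted p = 0.225). Bcl2, the founding member of the family, had the lowest change of the 10 genes. It was at 6.02, 5.83 and 6.36 in WT and 5.96, 5.74 and 5.37 in SRSF3HKO (-0.38 ± 0.22, limma adjusted p = 0.29, 95% interval -0.88 to 0.12). Only 5 of its 10 probe sets were tested, and they spread from -0.44 in probe set 4558502 to 0.38 in probe set 5083076, which read 417, 366 and 390 in WT and 467, 558 and 512 in SRSF3HKO. Bcl2l2 was at 5.96, 5.37 and 5.78 in WT and 6.11, 5.74 and 5.65 in SRSF3HKO (0.13 ± 0.21, limma adjusted p = 0.735). Its 5 tested probe sets of 9 ranged from -0.28 in 5299261 to 0.28 in 5582593, and the genotypes overlapped in all 5. The brightest Bcl2l2 probe set, 5207388, read 3435, 4717 and 4029 in WT and 2943, 4619 and 3528 in SRSF3HKO (-0.15 ± 0.21, limma adjusted p = 0.71). The gene level, a median over all 9 probe sets, lies far below it. Neither Bcl2 nor Bcl2l2 had a probe set called by limma or at an unadjusted p under 0.05.

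**Figure D3:**
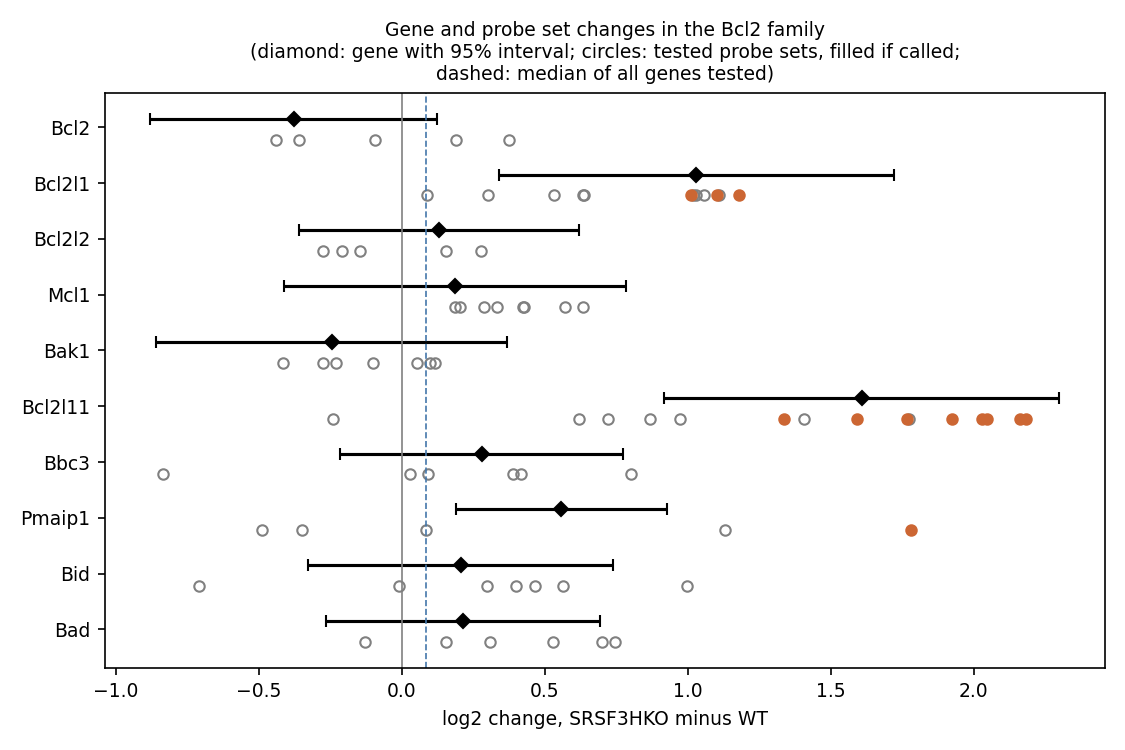
Change in log2(intensity + 16), SRSF3HKO minus WT, of the 10 genes (diamonds with 95% intervals) and of their tested probe sets (circles, orange where called); the dashed line is the median of all genes tested, 0.08. The intervals of Bcl2l11, Bcl2l1 and Pmaip1 lie above 0, without adjustment for the number of genes, and probe sets of Pmaip1, Bbc3 and Bid lie on both sides of 0.

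Bak1, the effector of the list, was at 6.57, 6.93 and 6.44 in WT and 6.73, 5.87 and 6.60 in SRSF3HKO. SRSF3HKO replicate 2 was below all other arrays, the remaining arrays overlapped, and the change was -0.25 ± 0.27 (limma adjusted p = 0.59, 95% interval -0.86 to 0.37). Without SRSF3HKO replicate 2 the change was 0.02. Its 7 tested probe sets of 8 ranged from -0.41 in 4779577 to 0.11 in 5102238, and none was free of overlap, called by limma or at an unadjusted p under 0.05.

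Pmaip1, which codes for the MCL1 antagonist NOXA and is a p53 target, was the third gene without overlap. It was at 5.65, 5.48 and 5.39 in WT, close to the floor, and at 6.18, 5.97 and 6.05 in SRSF3HKO. The change was 0.56 ± 0.16, or 1.47-fold with a 95% interval of 1.14 to 1.90 (limma adjusted p = 0.0599), and it was not called in any alternative tried (lowest limma adjusted p = 0.0514, with array weights). Its probe sets did not move together. Of 7, 2 were too dim to test but enter the gene level, and the tested 5 had a median change of 0.08. The 3 above the floor in WT changed by 0.08 (4644294), -0.49 (4716576) and -0.35 (5533302), so the rise of the gene rests on probe sets near background. The brightest, 5533302, read 146, 266 and 173 in WT and 144, 127 and 167 in SRSF3HKO (limma adjusted p = 0.459). Probe set 4800421 read 24.9, 11.3 and 26.0 in WT, below the floor, and 245, 78.3 and 61.0 in SRSF3HKO, at least 2.51-fold higher (limma adjusted p = 0.0427). Replicate 1, the array with high macrophage markers, held the highest value, and without it the change was 1.24, against 1.78 with all arrays (limma adjusted p = 0.0646); the part of other cell types in this probe set was not tested. Leaving out WT replicate 1, 2 or 3 gave limma adjusted p = 0.121, 0.156 and 0.0993, and the Y-linked covariate gave 0.081, so the call ended there too. At the other end, probe set 4716576 read 51.8, 60.5 and 67.0 in WT and 37.1, 46.8 and 30.5 in SRSF3HKO, lower on every SRSF3HKO array but not called (-0.49 ± 0.26, limma adjusted p = 0.275).

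Pmaip1 was the only member with a call for exon usage. The change of 4800421 exceeded that of the other Pmaip1 probe sets by 1.69 (limma diffSplice adjusted p = 0.038), and the gene passed diffSplice's Simes test (adjusted p = 0.0227), as did 5.83% of 12255 genes. diffSplice takes a common spread for all probe sets of a gene. A splicing index, the gene level subtracted from the probe set level on each array, was tested with a spread of its own for each probe set. The index of 4800421 was -0.30, -0.71 and 0 in WT and 1.85, 0.59 and 0.22 in SRSF3HKO. The difference of 1.22 did not pass (limma adjusted p = 0.355). The usage call ended in 8 of 11 alternatives, among them those without WT replicate 1, 2 or 3 and that without SRSF3HKO replicate 1 (limma diffSplice adjusted p = 0.171, 0.359, 0.0623 and 0.0514).

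**Figure D4:**
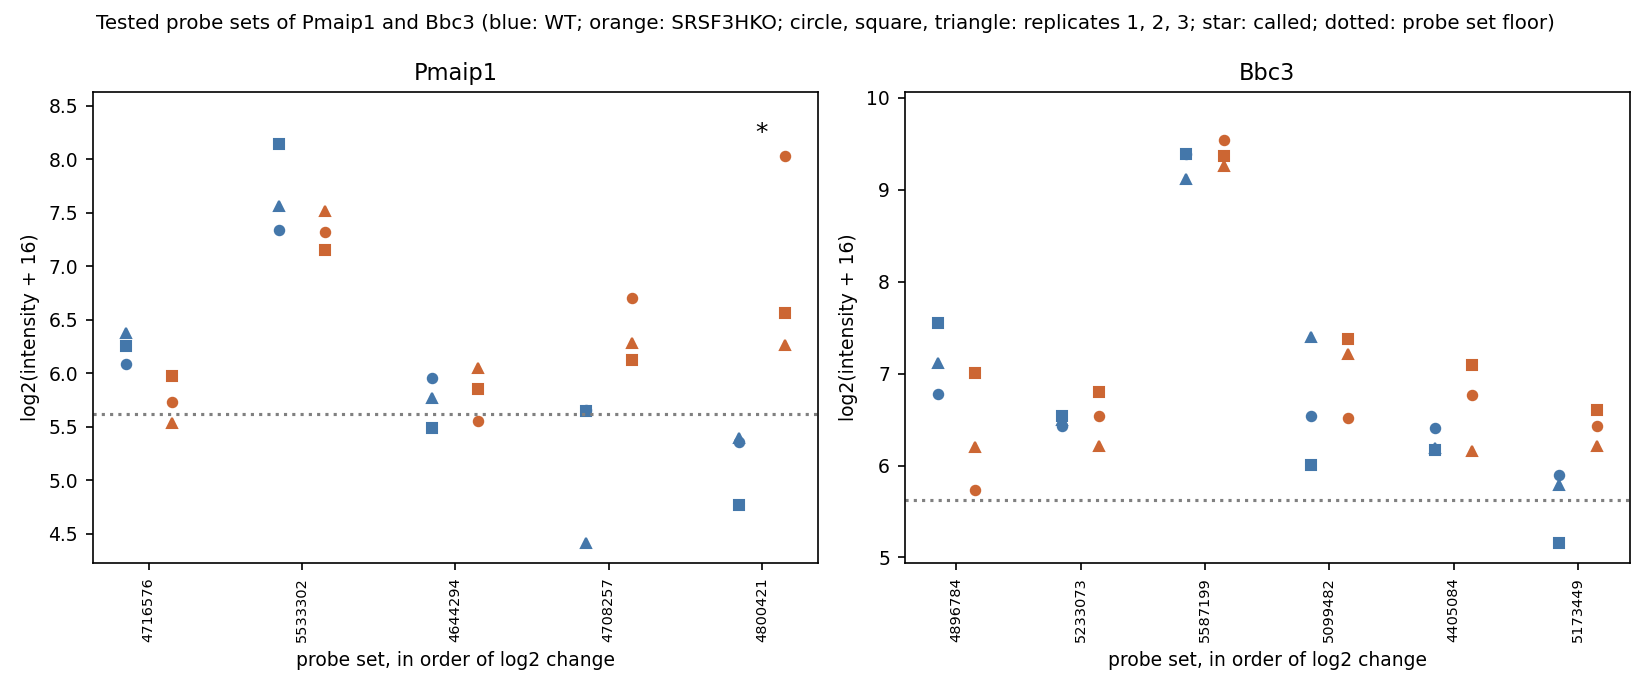
Tested probe sets of Pmaip1 (5) and Bbc3 (6), each at its log2(intensity + 16) on 3 WT (blue) and 3 SRSF3HKO (orange) arrays, ordered by change, with the probe set floor of 5.62 as a dotted line. Probe set 4800421 of Pmaip1 (star) lies below the floor in WT and at 6.27 to 8.03 in SRSF3HKO, whereas 4716576 of Pmaip1 and 4896784 of Bbc3 have lower SRSF3HKO means.

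Bbc3, which codes for PUMA, another p53 target, was at 6.41, 6.00 and 6.19 in WT and 6.43, 6.80 and 6.21 in SRSF3HKO. Every SRSF3HKO array lay above the WT median and the groups overlapped (0.28 ± 0.22, limma adjusted p = 0.435, 95% interval -0.22 to 0.77). Of its 9 probe sets 6 were tested and limma called none, with 1 higher and 1 lower at an unadjusted p under 0.05. Probe set 4896784 had a change of -0.84 ± 0.36, from 94.1, 172 and 122 to 37.3, 112 and 57.9 (limma adjusted p = 0.182), and was called lower without SRSF3HKO replicate 2 (-1.18, limma adjusted p = 0.0415). Probe set 5173449 went the other way, from 43.6, 19.7 and 39.3 to 70.1, 81.2 and 58.2 (0.80 ± 0.29, limma adjusted p = 0.125), with no overlap.

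Bid, which caspase 8 cleaves to an active form, was at 6.20, 6.70 and 6.93 in WT and 6.99, 6.67 and 6.79 in SRSF3HKO (0.21 ± 0.23, limma adjusted p = 0.605, 95% interval -0.33 to 0.74). Of its 7 tested probe sets, among 9, 5 had positive changes and 2 negative ones. Probe set 5591964 read 1034, 987 and 739 in WT and 363, 1046 and 434 in SRSF3HKO (-0.71 ± 0.37, limma adjusted p = 0.266), with replicate 2 at the WT level and the others below it. Without SRSF3HKO replicate 2 this probe set was called lower (-1.17, limma adjusted p = 0.0117), and probe set 5300341, at 57.3, 75.5 and 126 in WT and 267, 104 and 207 in SRSF3HKO, was called higher (1.35, limma adjusted p = 0.0277). On all arrays neither was called, for level or for usage (lowest limma diffSplice adjusted p = 0.253). Bad, whose product is held inactive by phosphorylation downstream of AKT, was at 6.41, 6.73 and 6.51 in WT and 6.77, 6.48 and 7.04 in SRSF3HKO (0.21 ± 0.21, limma adjusted p = 0.543). All 6 of its probe sets were tested, from -0.13 in 4718753 to 0.75 in 4752012, and limma called none, with 1 at an unadjusted p under 0.05.

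Over the 10 genes, 76 of 98 probe sets were tested and 22 were too dim. Of the 76, 12 were called higher (15.8%) and 0 lower, where limma called 4.73% of all probe sets tested higher and 4.32% lower, 9.04% in all. The 12 lay in Bcl2l11 (8), Bcl2l1 (3) and Pmaip1 (1), and probe sets of a gene are not independent. Of the 62 tested probe sets above the floor in WT, 7 were called, and the other calls passed the floor only through SRSF3HKO values. The matching share of the array was not computed. At an unadjusted p under 0.05, 25 of the 76 were higher and 1 lower, where 14.8% of all probe sets tested were higher and 11.1% lower. Of these 25, 12 belonged to Bcl2l11 and 8 to Bcl2l1. The count of 12 became 4 without any 1 of the WT arrays, 7 with no filter and 6 with the Y-linked covariate. Without SRSF3HKO replicate 2, 2 were called lower, and with array weights 1. The genotypes did not overlap for 27 higher and 2 lower probe sets of the 76; 31.8% of all probe sets tested had no overlap, 18.3% with SRSF3HKO higher.

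The genes whose profile over the 6 arrays came nearest to that of Bcl2l11 were Clec4d, Ppp1r15a and Plekha1. Their mean-centred levels differed from those of Bcl2l11 by a root mean square of 0.09, 0.11 and 0.12 log2 units over 11708 genes compared. Clec4d, a C-type lectin gene of myeloid cells, was at 4.56, 4.58 and 4.78 in WT, below the floor, and at 6.16, 7.04 and 5.68 in SRSF3HKO, at least 1.92-fold higher by the floor. Ppp1r15a, whose product GADD34 takes part in the dephosphorylation of eIF2α during the integrated stress response, was at 6.07, 5.73 and 5.86 in WT and 7.30, 8.26 and 6.80 in SRSF3HKO (1.57, limma adjusted p = 0.0266). Plekha1, an adaptor gene with pleckstrin homology domains, was at 6.69, 6.17 and 6.37 and at 7.83, 8.57 and 7.51 (1.56, limma adjusted p = 0.0162). All were picked for their likeness to Bcl2l11 over these same arrays. Their shared order of the SRSF3HKO arrays, replicate 2 above 1 above 3, follows from that choice.

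Other genes of the apoptosis pathways were taken from lists. In the wider Bcl2 family, 14 of 19 listed genes had probe sets of their own, 11 were tested and limma called none, with 2 at an unadjusted p under 0.05; 9 changes were positive and the median was 0.29. Bnip3, a mitophagy receptor, was at 9.97, 9.70 and 10.48 in WT and 10.03, 11.41 and 10.88 in SRSF3HKO (0.73 ± 0.36, limma adjusted p = 0.222), the highest change of this list. Becn1, an autophagy gene whose product binds BCL2, was higher on every SRSF3HKO array, at 9.24, 9.83 and 9.47 against 8.85 to 8.88 in WT, and did not pass (0.65, limma adjusted p = 0.0776). Of the 11 tested genes 2 had no overlap, where 35.6% of all genes tested had none. Bax was not analysed here.

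Among caspases and other apoptosome genes, 13 of 17 were tested and limma called none, with 2 at an unadjusted p under 0.05, 8 positive changes and a median of 0.19. Casp6, an executioner caspase, was at 8.41, 8.73 and 8.67 in WT and 9.25, 9.08 and 9.89 in SRSF3HKO (0.81 ± 0.25, limma adjusted p = 0.0721). Apaf1, the scaffold of the apoptosome, was at 6.11 to 6.19 in WT and at 7.17, 7.19 and 6.41 in SRSF3HKO (0.76 ± 0.24, limma adjusted p = 0.0769). Neither gene overlapped between genotypes. In this list 4 of the 13 tested genes had no overlap, where 35.6% of all genes tested had none. The others were Diablo, higher (0.41), and Vdac1, lower (-0.22). The lowest change of the list was that of Endog (-0.52, limma adjusted p = 0.246). Casp8, which acts on BID, was at 8.87 to 8.96 in WT and at 8.92, 8.01 and 8.85 in SRSF3HKO (-0.32 ± 0.26, limma adjusted p = 0.469).

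In the death receptor list 1 of 13 tested genes was called. Tnfrsf10b, the mouse receptor for TRAIL and a p53 target, rose from 5.58, 5.59 and 5.47 in WT to 6.30, 6.33 and 6.02 in SRSF3HKO (0.67 ± 0.17, limma adjusted p = 0.0384). Its call ended when WT replicate 1, 2 or 3 was left out (limma adjusted p = 0.126, 0.107 and 0.135), without SRSF3HKO replicate 1 or 2 (0.0723 and 0.0566), with the Y-linked covariate (0.0823) and with no filter (0.0516). Its ligand gene Tnfsf10 was at 6.67, 6.08 and 6.99 in WT and 6.08, 5.78 and 5.55 in SRSF3HKO (-0.78 ± 0.26, limma adjusted p = 0.0924). Fas was at 7.94, 7.39 and 7.61 and at 8.20, 6.84 and 7.73 (-0.06 ± 0.34, limma adjusted p = 0.934). The list median was 0.08. None of 5 tested genes for inhibitor of apoptosis proteins was called by limma or had an unadjusted p under 0.05 (median 0.02), among them Xiap, a caspase inhibitor, with a change of -0.19 ± 0.20 (limma adjusted p = 0.573).

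Of 17 tested regulators of the family, 13 had positive changes, the median was 0.40 and 1 was called. Ddit3, which codes for CHOP, a stress-induced transcription factor known to act on Bcl2l11, rose from 6.05, 6.20 and 6.08 in WT to 7.28, 6.96 and 7.81 in SRSF3HKO (1.24 ± 0.24, limma adjusted p = 0.0172). Its highest array was SRSF3HKO replicate 3, the lowest of that group for Bcl2l11. A link between Ddit3 and Bcl2l11 was not tested. The Ddit3 call ended when WT replicate 1, 2 or 3 was left out (limma adjusted p = 0.0848, 0.0736 and 0.0733). Atf4, which acts upstream of Ddit3, was at 9.44, 9.01 and 9.44 in WT and 9.48, 10.06 and 9.61 in SRSF3HKO (0.42 ± 0.23, limma adjusted p = 0.262). Mdm4, a restraint on p53, was at 7.52, 7.10 and 7.62 and at 7.88, 8.21 and 7.99 (0.61 ± 0.21, limma adjusted p = 0.1). In these 5 lists limma thus called 2 of 59 tested genes, both higher, against 11.9% of all genes.

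**Figure D5:**
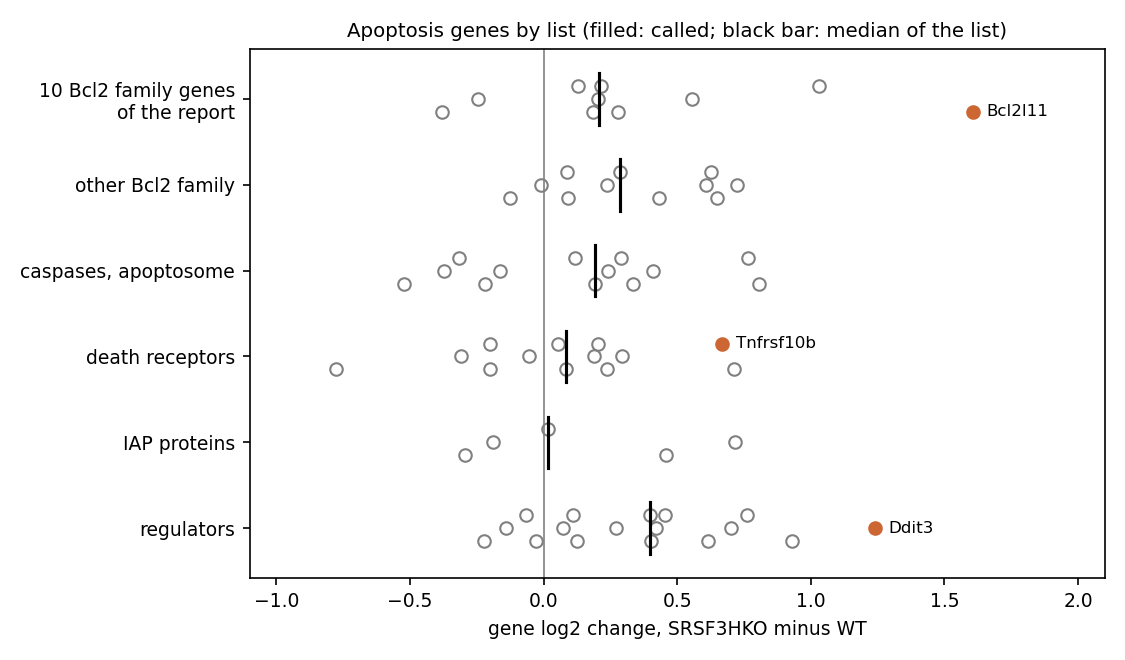
Change in log2(intensity + 16), SRSF3HKO minus WT, of each tested gene in the 10 Bcl2 family genes and 5 further lists of apoptosis genes, with called genes filled and named and the median of each list as a black bar. Bcl2l11, Tnfrsf10b and Ddit3 are the called genes, at 1.61, 0.67 and 1.24, and the medians run from 0.02 to 0.40.

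Markers of other cell types were read on the same arrays. Lymphocyte markers, cells in which Bcl2 and Bcl2l11 are prominent, averaged 5.51 to 5.59 in WT and 5.17 to 5.96 in SRSF3HKO, with 6 of 10 measured genes above the floor and none called by limma or at an unadjusted p under 0.05. Neutrophil markers averaged 5.02 to 5.27 in WT and 5.13 to 6.30 in SRSF3HKO, with 4 of 6 above the floor, none called by limma and 1 at an unadjusted p under 0.05. For each of these lists, as for the macrophage markers, SRSF3HKO replicate 1 was the highest array. It was also the highest of the 6 arrays for Pmaip1, Bid and Bcl2l2, and the highest SRSF3HKO array for Bcl2 and Bak1, but not for Bcl2l11, Bcl2l1, Mcl1, Bbc3 or Bad. Endothelial markers averaged 7.74 to 8.18 in WT and 7.40 to 8.03 in SRSF3HKO, and cholangiocyte markers 6.04 to 6.54 and 6.44 to 6.87. Besides Marco, limma called 4 marker genes, all lower in SRSF3HKO and without overlap. Over all genes tested, 11.9% were called, 5.03% as lower, and 35.6% had no overlap. The 4 were Serpina1c, 1 of 10 tested in the hepatocyte list (-1.57, limma adjusted p = 0.00898), and Kdr, 1 of 8 in the endothelial list (-0.87, limma adjusted p = 0.0452). The others were Col3a1, 1 of 8 tested in the stellate list (-1.41, limma adjusted p = 0.0434), and Alas2, 1 of 4 in the erythroid list (-2.35, limma adjusted p = 0.0228). The part of these cells in the changes of single members was not tested.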

How the data were processed

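Liver RNA of SRSF3HKO and WT mice was measured on 3 exon arrays per genotype. The values are PLIER intensities of core exon probe sets on a linear scale, made by the authors in Affymetrix Expression Console, per the labels and the submitters' processing notes; versions and genome build are not given in the sources used here. Summarising probes per probe set can blur small exon changes.

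Replicates were numbered in accession order. Of the probe sets, 208397 were listed for 1 gene, 3965 for several and 17219 for none; symbols were updated through RefSeq for 2124 of 16299 symbols, and 43 were not found there. Log2(intensity + 16) values were fitted with limma 3.58.1 in R 4.3.3 (empirical Bayes with trend, Benjamini-Hochberg adjustment over all genes or probe sets tested). A gene's level was the median over its probe sets. Where a WT mean lay below the floor, each WT array below it was raised to the floor and the fold is a lower bound. Exon usage was tested with diffSplice in genes with at least 3 tested probe sets. Scripts were tested on simulated data. Figures were drawn with matplotlib 3.10.9 in Python 3.11.15.

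The members and lists were chosen with earlier results of these data known. Named by rule were the members, their extreme probe sets, those called for level and usage, the called genes of each list, the 3 nearest profiles and Srsf3; every other named gene or probe set was chosen after its values were seen. Alternatives varied the pseudocount (1, 64), normalization, filter, gene summary, trend, array weights, a Y-linked covariate and the arrays used. Pmaip1 was left out of the promoter windows. Other cell type lists were those of hepatocytes, macrophages, lymphocytes, neutrophils, endothelial cells, cholangiocytes, stellate cells (WT 7.06 to 7.38, SRSF3HKO 6.52 to 7.25) and erythroid cells (7.37 to 7.91 and 6.15 to 7.40).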

Additional observations from a re-analysis of the deposited data

How the results depend on the processing

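Over all genes tested limma called 1391, which became 2155 with array weights, 732 with the Y-linked covariate and 244 (without WT replicate 1) to 2155 (without SRSF3HKO replicate 2) when 1 array was left out. Over all probe sets 14275 were called, 23402 with array weights, 7322 with the Y-linked covariate and 3006 to 21885 with 1 array left out. Of the Bcl2 family genes 1 was called higher, 2 with the filter at the median of all genes or with array weights, and 0 to 2 with 1 array left out; none was called lower in any of the 18 alternatives. Of their probe sets 12 were called higher, 7 with no filter, 6 with the Y-linked covariate and 4 to 11 with 1 array left out, and 0 were called lower, 1 with array weights and 0 to 2 with 1 array left out. Exon usage was called in 1, and in 0 with a pseudocount of 1 or 64, with the Y-linked covariate and by the splicing index, and in 0 to 4 with 1 array left out. The cause of these shifts was not tested, apart from the fewer arrays or other genes tested that the alternatives themselves bring.

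Bcl2l11 was called in 15 of 18 alternatives, at changes of 1.06 to 1.95. Its called probe sets above the floor in WT were called in 11 (5041179), 6 (4438003), 6 (5442869) and 2 (5429345) of 14 alternatives; 4902664, 4695667 and 4915956, called in all 14, were below the floor in WT. No called member changed sign. Uncalled values near 0 did: with array weights Mcl1 had -0.018, probe set 4718753 (Bad) 0.018 and probe set 5272363 (Bcl2l1) -0.050. With 1 array left out, Bcl2l2 ran from -0.039 to 0.26 (-0.0066 without SRSF3HKO replicate 1), Bid from -0.0019 to 0.37, Bak1 from -0.41 to 0.020 and Srsf3 from -0.022 to 0.58. The same held for probe sets 4718753 (-0.24 to 0.034), 5102238 (Bak1, -0.26 to 0.56), 5243259 (Mcl1, -0.075 to 0.39) and 5272363 (-0.24 to 0.35, and -0.16 without WT replicate 3). The gene summary moved uncalled values by over 1.5 times: with only probe sets above the floor Bid had 0.64, Bbc3 0.05, Bcl2l2 0.24, Mcl1 0.28 and Bak1 -0.16. With median polish Srsf3 had 0.81, Mcl1 0.45, Bid 0.33, Bcl2 -0.18 and Bak1 -0.12, and with the mean Srsf3 had 0.56, Bad 0.38, Bcl2l2 0.06 and Bak1 -0.11. With the filter at the median of all genes, Bcl2, Bcl2l2, Bbc3, Pmaip1 and Tnfrsf10b were too dim to be tested. No paired analysis was possible because the labels do not pair WT arrays with SRSF3HKO arrays. Gene levels close to background limit Bcl2, Bcl2l2, Pmaip1 and WT Bcl2l11, though single probe sets of Bcl2 (5083076) and Bcl2l2 (5207388) were far brighter. All members are limited by 3 arrays per group.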
